A study of Rattus norvegicus with 36 samples.

Results

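The core circadian clock was followed through 10 named genes in ileum and colon of UCD-T2DM rats: Arntl, Clock, Per1, Per2, Per3, Cry1, Nr1d1, Nr1d2, Dbp and Tef. They were chosen by name, are 10 of the 24773 genes in the count table, and all 10 passed the filter on low counts in both tissues. Abundance is given as CPM, counts scaled to a common library size after TMM normalization, and differences between groups as log2 fold changes ± SE. CPM takes no account of gene length, so levels are compared between libraries and never between genes.

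The 18 male rats came from the colony bred at the University of California, Davis, as a model of type 2 diabetes, in which rats become diabetic with age, and distal ileum and proximal colon of every rat were sequenced, giving 36 libraries. The 6 ND rats had no diabetes and were 70 days old, with fasting glucose of 85.6 to 101.6 mg/dl and body weights of 390 to 431 g. The 6 D1M rats were 168 to 172 days old and 22 to 23 days past the onset of diabetes, with glucose of 93.6 to 178.6 mg/dl and weights of 597 to 663 g. The 6 D3M rats were 172 to 173 days old and 88 to 116 days past onset without treatment, with glucose of 165 to 330.6 mg/dl and weights of 472 to 575 g. The model has no genetically matched control strain, so age and diabetes cannot be told apart in comparisons with ND, whereas D3M and D1M rats were of nearly the same age. All D3M rats had the same litter birth date and most D1M rats had a later one, so litter date and group largely coincide. All rats were killed after a fast, under pentobarbital, 6 on the second of the study's days (2 of each group) and 12 on the first (4 of each group). The day of sacrifice is not a label but was worked out from litter birth date plus age. The flow cell of a library was likewise read from the prefix of its name. The paper speaks of batch effects between runs and does not name flow cells. No source used here gives the hour of a sacrifice.

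In mammals the clock is a feedback loop of transcription that runs in nearly every cell, including those of the gut wall. ARNTL (also called BMAL1) and CLOCK bind E-boxes and switch on Per, Cry, Nr1d1, Nr1d2, Dbp and Tef. PER and CRY proteins then inhibit ARNTL and CLOCK, while NR1D1 and NR1D2 (REV-ERB alpha and beta) repress Arntl through ROR elements. Over a day, Arntl RNA therefore peaks opposite to the Per genes, with Nr1d1 and Dbp earlier than Per2 and Cry1 later. Clock RNA changes little over the day in most tissues. In the intestine the clock is known for timing nutrient absorption and cell division, and it follows feeding as well as light.

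The 250 bases before the start were searched in RefSeq's rat promoters (assembly GRCr8), which matched 9 of the 10 genes, with 2 start sites each for Clock and Nr1d1. The letters searched on both strands were the E-box CACGTG, the related box CACGTT, the D-box of Dbp and Tef proteins (TTATGTAA or TTACGTAA) and the core of the ROR element (TAGGTCA). Of 33469 promoter windows, 5.59% held CACGTG, 4.07% CACGTT, 0.932% the D-box and 2.26% TAGGTCA. The 4 windows below are shown because they hold the letters through which the 2 arms of the loop meet, with the matching letters in capitals.
Arntl (chr1:176766078-176766327, plus strand): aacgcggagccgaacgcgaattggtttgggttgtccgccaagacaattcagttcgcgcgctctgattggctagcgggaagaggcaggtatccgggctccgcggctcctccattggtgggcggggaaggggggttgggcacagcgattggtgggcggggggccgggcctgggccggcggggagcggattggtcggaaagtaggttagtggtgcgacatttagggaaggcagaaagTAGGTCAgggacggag
Per2 (chr9:99496994-99497243, minus strand): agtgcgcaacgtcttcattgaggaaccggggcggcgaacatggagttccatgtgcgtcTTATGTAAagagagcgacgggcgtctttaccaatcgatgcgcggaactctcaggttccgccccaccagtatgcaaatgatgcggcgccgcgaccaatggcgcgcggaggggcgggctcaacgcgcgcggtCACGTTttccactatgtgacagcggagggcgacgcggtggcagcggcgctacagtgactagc
Nr1d1, the second start (chr10:84229455-84229704, minus strand): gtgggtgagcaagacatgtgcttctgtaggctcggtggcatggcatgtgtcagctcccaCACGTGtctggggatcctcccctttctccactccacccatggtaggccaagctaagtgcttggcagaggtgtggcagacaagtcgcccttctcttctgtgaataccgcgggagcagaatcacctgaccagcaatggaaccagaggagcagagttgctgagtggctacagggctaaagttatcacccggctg
Tef (chr7:115206577-115206826, plus strand): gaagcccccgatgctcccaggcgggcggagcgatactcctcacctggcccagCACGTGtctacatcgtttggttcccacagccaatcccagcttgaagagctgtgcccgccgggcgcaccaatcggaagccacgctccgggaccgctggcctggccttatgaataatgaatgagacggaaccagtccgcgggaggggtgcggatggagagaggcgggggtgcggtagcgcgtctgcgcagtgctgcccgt
The Arntl window held TAGGTCA 16 bases before the start. That of Per2 held a D-box at 192 bases and CACGTT at 62 bases before the start. Nr1d1 and Tef held CACGTG at 191 and 198 bases, and the other start of Nr1d1 held CACGTT at 174 bases. The windows of Clock, Per1, Per3, Nr1d2 and Dbp held none of these letters. The motifs did not overlap each other, and a match describes the sequence only.

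Libraries held 12279059 to 21510043 counts in ileum and 10024041 to 18299050 in colon. The regional markers fitted the tissue labels in most libraries. Fabp6, the ileal bile acid binding protein, was at 8706 CPM in the colon library of ND rat 1 and at 21.3 CPM or less in the other 17 colon libraries. Car1, a colonic carbonic anhydrase, was at 3616 CPM in the ileum library of ND rat 4, at 1345 CPM in that of D3M rat 5 and at 130 CPM or less in the other 16. Rats are numbered 1 to 6 within each group, and results that rest on ND rats 1 and 4 are also given without them, and those that were called also without D3M rat 5, a choice made after its Car1 level had been seen. In whole tissue, fewer cells of a type and less RNA per cell cannot be told apart.

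**Figure D1:**
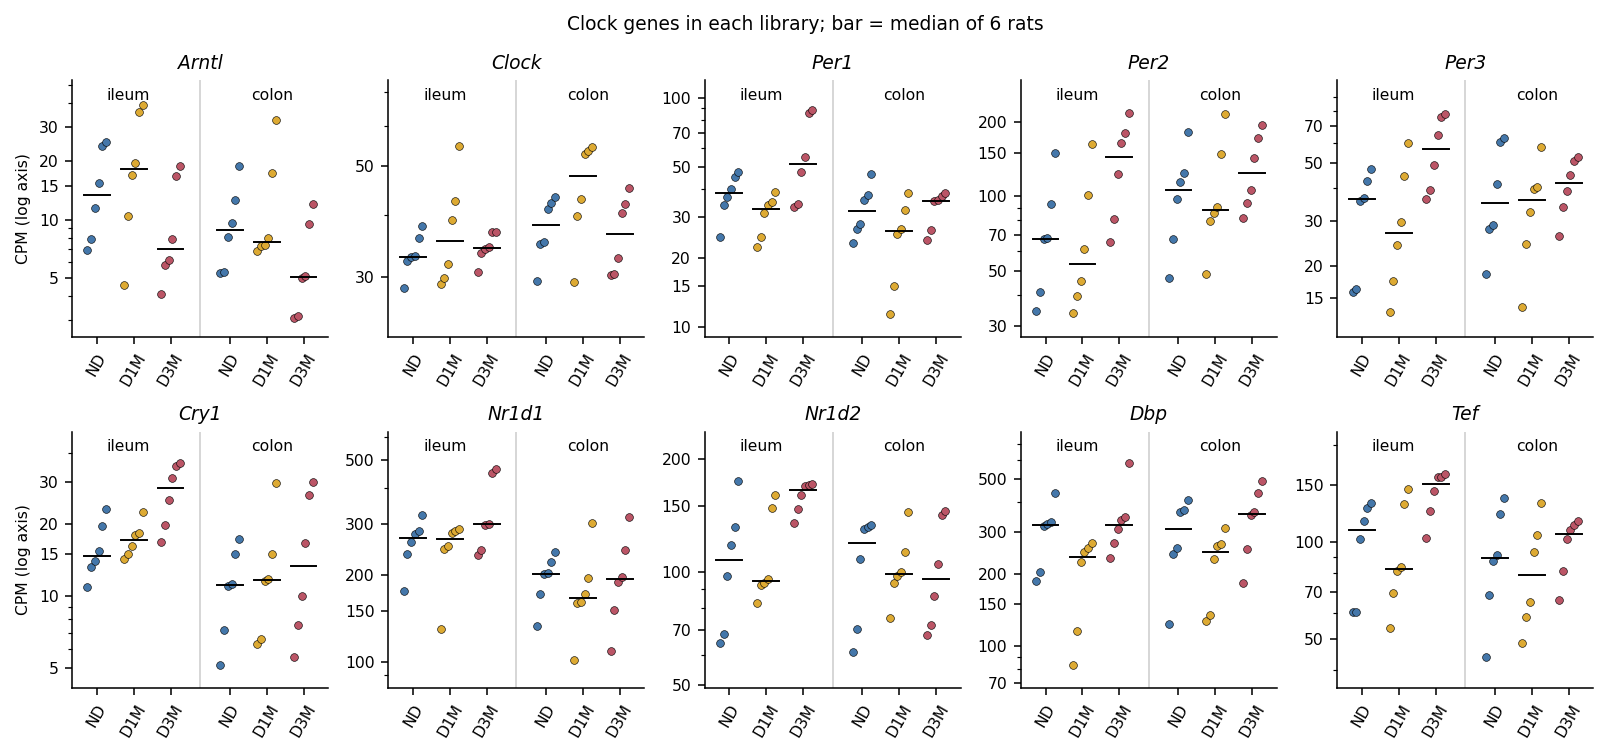
Abundance of the 10 clock genes in every library, as TMM-normalized CPM on a log axis, with 1 point per rat in ND (blue), D1M (yellow) and D3M (red) and a bar at the median of 6 rats. In ileum the D3M points of Per1 (33.2 to 88.2 CPM) overlap the D1M points (22.3 to 38.7 CPM), and the groups overlap for every gene.

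Arntl (chr1:178039063-178137465 in rn6, plus strand), the activator of the loop together with Clock, varied most between rats of 1 group in ileum. In ileum its lowest, median and highest levels were 6.94, 13.5 and 25.3 CPM in ND rats, 4.59, 18.3 and 39.0 CPM in D1M rats, and 4.12, 7.03 and 18.9 CPM in D3M rats. In colon they were 5.31, 8.83 and 18.9 CPM in ND rats, 6.87, 7.69 and 32.9 CPM in D1M rats, and 3.10, 5.04 and 12.1 CPM in D3M rats. The D3M median was the lowest in both tissues, but the D3M and D1M ranges overlapped. The log2 fold change in D3M vs D1M was −1.08 ± 0.53 in ileum (edgeR adjusted p = 0.291) and −1.43 ± 0.56 in colon (adjusted p = 0.945). Against ND, the D3M change was −0.58 ± 0.61 in ileum and −0.87 ± 0.50 in colon. Counts of Arntl were low, down to 36 reads in a colon library. Clock (chr14:34446616-34502218, plus strand), which encodes the partner of ARNTL, was the steadiest of the 10 genes. Its medians were 33.0 CPM in ND, 35.4 CPM in D1M and 34.3 CPM in D3M ileum, and 38.1 CPM in ND, 47.8 CPM in D1M and 36.5 CPM in D3M colon.

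Among the inhibitors, Per1 (chr10:55687050-55695994, plus strand) is the period gene that glucocorticoids and other acute signals also induce. In ileum the lowest, median and highest Per1 levels were 24.6, 38.4 and 47.4 CPM in ND rats, 22.3, 32.6 and 38.7 CPM in D1M rats, and 33.2, 51.1 and 88.2 CPM in D3M rats. D3M rats 2 and 4, at 86.1 and 88.2 CPM, lay above all others, whereas D3M rats 1 and 5 lay within the D1M range. The D3M vs D1M log2 fold change was 0.79 ± 0.21, the nearest of the 10 genes to the threshold in that comparison (edgeR adjusted p = 0.0645). In colon Per1 reached 23.8, 35.4 and 38.3 CPM in D3M rats and 11.3, 26.1 and 38.4 CPM in D1M rats, a log2 fold change of 0.50 ± 0.20 (adjusted p = 0.945). Of 5 glucocorticoid targets (Fkbp5, Tsc22d3, Zbtb16, Sgk1 and Klf9), 4 passed the filter in ileum. Summed CPM of those 4 was 595 to 1408 in D3M ileum and 481 to 577 in D1M ileum. None of the 4 that could be tested passed the adjusted threshold in that comparison, 2 had p under 0.05 before adjustment, and their part in the Per1 level was not tested.

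Per2 (chr9:98555169-98597359, minus strand) had the widest spread of the period genes. In ileum its lowest, median and highest levels were 34.5, 67.5 and 150 CPM in ND rats, 34.0, 53.6 and 163 CPM in D1M rats, and 65.4, 144 and 218 CPM in D3M rats. In colon they were 46.9, 106 and 182 CPM in ND rats, 48.6, 87.9 and 214 CPM in D1M rats, and 82.1, 125 and 194 CPM in D3M rats. The D3M median was the highest in both tissues, with overlapping ranges. The D3M vs D1M log2 fold change was 0.79 ± 0.42 in ileum (edgeR adjusted p = 0.332) and 0.54 ± 0.32 in colon (adjusted p = 0.977). Per3 (chr5:168086998-168123395, minus strand), the third period gene, had ileal medians of 36.3 CPM in ND, 26.9 CPM in D1M and 56.8 CPM in D3M rats. Its ileal range was 36.4 to 77.7 CPM in D3M and 13.3 to 59.7 CPM in D1M rats, a log2 fold change of 0.78 ± 0.34 (adjusted p = 0.227). Its colonic medians were 35.2 CPM in ND, 36.2 CPM in D1M and 42.1 CPM in D3M rats.

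Cry1 (chr7:24534615-24634097, plus strand) encodes the cryptochrome that closes the loop late in the cycle. In ileum its lowest, median and highest levels were 10.9, 14.8 and 23.3 CPM in ND rats, 14.4, 17.2 and 22.6 CPM in D1M rats, and 16.9, 28.3 and 36.3 CPM in D3M rats. Of the D3M rats, 4 lay above every ND and D1M rat and the other 2 (rats 1 and 5) did not. The ileal log2 fold change was 0.65 ± 0.25 in D3M vs ND (edgeR adjusted p = 0.0913) and 0.61 ± 0.21 in D3M vs D1M (adjusted p = 0.124). In colon Cry1 spanned 5.53 to 30.2 CPM in D3M and 5.14 to 17.4 CPM in ND rats, with a log2 fold change of 0.86 ± 0.38 (adjusted p = 0.461).

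Nr1d1 (chr10:86683875-86690815, minus strand) and Nr1d2 (chr15:8730871-8757165, plus strand) encode the repressors of Arntl. The Nr1d1 gene overlaps Thra on the other strand, and no source used here says whether reads were counted by strand, so Nr1d1 counts may include Thra reads. In ileum Nr1d1 had its lowest, median and highest levels at 176, 268 and 322 CPM in ND rats, 130, 265 and 288 CPM in D1M rats, and 234, 299 and 463 CPM in D3M rats. The 2 highest values, 449 and 463 CPM, belonged to D3M rats 5 and 6, both killed on the second day. Their libraries were also the only D3M ileum libraries on flow cell 3. Day and flow cell therefore cannot be told apart within D3M ileum. The library of rat 5 also held the colonic marker Car1. In ND and D1M ileum too, Nr1d1 was highest in the 2 rats of the second day. They were at 284 and 322 CPM in ND, where the others reached at most 276 CPM. In D1M they were at 288 and 283 CPM, where the others reached at most 278 CPM. Those libraries were on flow cells 2 and 1 in ND and on flow cells 1 and 3 in D1M. The D3M vs D1M log2 fold change of Nr1d1 was 0.45 ± 0.20 in ileum (edgeR adjusted p = 0.241) and −0.05 ± 0.24 in colon (adjusted p = 0.995). Nr1d2 in ileum lay between 135 and 172 CPM in D3M rats and between 82.8 and 160 CPM in D1M rats, a log2 fold change of 0.45 ± 0.21 (adjusted p = 0.261). In ND ileum Nr1d2 spanned 64.6 to 175 CPM, a range that held every D3M value. Its D3M vs D1M difference in colon was 0.15 ± 0.17.

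Dbp (chr1:101687855-101692846, plus strand) and Tef (chr7:123043503-123058604, plus strand) encode D-box transcription factors and are outputs of the loop. In ileum Dbp had its lowest, median and highest levels at 188, 322 and 437 CPM in ND rats, 83.4, 237 and 269 CPM in D1M rats, and 234, 322 and 585 CPM in D3M rats. The 2 lowest values belonged to D1M rats 1 and 5, and the D3M and ND medians were alike at 322 CPM. The D3M vs D1M log2 fold change of Dbp was 0.82 ± 0.32 in ileum (edgeR adjusted p = 0.171) and 0.71 ± 0.32 in colon (adjusted p = 0.945). Tef had ileal medians of 109 CPM in ND, 82.3 CPM in D1M and 151 CPM in D3M rats. Its D3M vs D1M log2 fold change was 0.59 ± 0.24 in ileum (adjusted p = 0.199) and 0.42 ± 0.26 in colon (adjusted p = 0.977).

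Between groups, none of the 10 clock genes passed an adjusted p of 0.05 in edgeR's quasi-likelihood test in either tissue. Over all genes tested, 12.5% were called in ileum in D3M vs ND, 2.22% in D3M vs D1M and 0.0154% in D1M vs ND. In colon 0.0155% were called in D3M vs ND, 0% in D3M vs D1M and 0% in D1M vs ND. Before adjustment, p was under 0.05 for 7 of the 10 genes in ileum in D3M vs D1M, against 19.1% of all genes. These genes were Per1, Per3, Cry1, Nr1d1, Nr1d2, Dbp and Tef, each with a higher fitted level in D3M than in D1M ileum. In D3M vs ND in ileum Cry1 alone had such a p, against 29.7% of all genes. In D1M vs ND in ileum no member had one, against 8.34%. In colon the members with such a p were Arntl, Per1 and Dbp in D3M vs D1M, against 5.28% of all genes. They were Cry1 alone in D3M vs ND, against 10.0%, and Clock and Per1 in D1M vs ND, against 4.66%. The median log2 fold change of the 10 genes in D3M vs D1M was 0.60 in ileum and 0.46 in colon, beside −0.04 and −0.01 over all genes. The median was 0.33 in ileum and 0.27 in colon in D3M vs ND, beside −0.08 and −0.01 over all genes, and −0.17 and −0.02 in D1M vs ND. These comparisons share groups of rats and are not independent of each other. Many of the 10 genes also varied together across rats, as given below. Counts and medians over the 10 genes, here and below, are therefore not over independent genes.

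DESeq2 run in place of edgeR called 3 of the 10 genes in ileum in D3M vs D1M, where it called 7.59% of all genes. They were Per1 (log2 fold change 0.82, DESeq2 adjusted p = 0.00540), Cry1 (0.64, adjusted p = 0.0412) and Dbp (0.85, adjusted p = 0.0474). In D3M vs ND in ileum it called Cry1 alone (0.68, adjusted p = 0.0410), where it called 17.3% of all genes. In every other group comparison DESeq2 called none of the 10. Without D3M rat 1, edgeR called Per1 (0.92, adjusted p = 0.0107) and Cry1 (0.73, adjusted p = 0.0347) in ileum in D3M vs D1M, where it then called 5.77% of all genes. Without ND rats 1 and 4 and D3M rat 5, edgeR called none of the 10 in any group comparison.

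**Figure D2:**
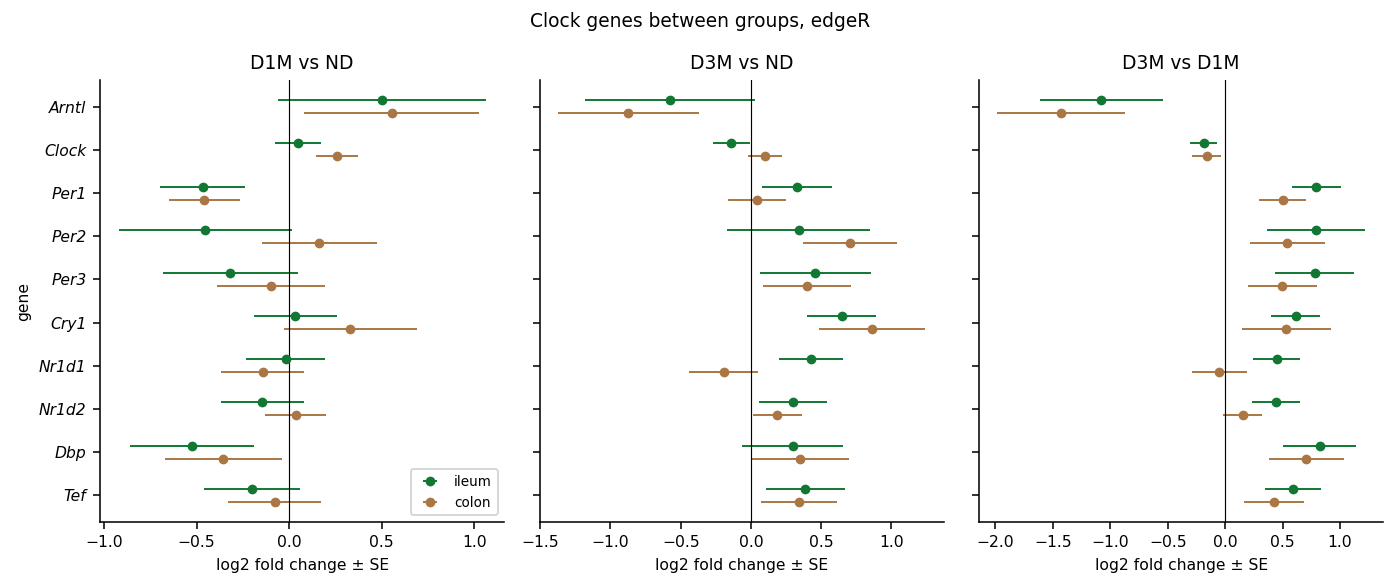
Log2 fold changes of the 10 clock genes with their SE in D1M vs ND, D3M vs ND and D3M vs D1M, from edgeR, in ileum (green) and colon (brown). In D3M vs D1M the Arntl points are at −1.08 in ileum and −1.43 in colon and the Per1 points at 0.79 and 0.50, and none of the 60 values passed the adjusted threshold.

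The group comparisons were also set against each other between tissues, in a fit that did not pair the ileum and colon of a rat. The difference of ileum minus colon was not called for any of the 10 genes in D3M vs ND, D3M vs D1M or D1M vs ND, where 1.56%, 0% and 0% of all genes were called. Before adjustment no member had p under 0.05 in these tests, against 16.8% of all genes in D3M vs ND, 8.31% in D3M vs D1M and 5.66% in D1M vs ND. DESeq2 called none of the 10 either. The widest difference among the 10 was that of Nr1d1 in D3M vs ND, at 0.67 ± 0.35 (edgeR adjusted p = 0.341). For Arntl it was 0.38 ± 0.80 in D3M vs D1M, an SE that leaves differences of either sign.

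Other genes of the clock were taken from a list of 21, of which 20 were in the count table and 16 in ileum and 15 in colon passed the filter. In ileum 2 of the 16 were higher and none lower in D3M vs ND, a share equal to the 12.5% called of all genes. In D3M vs D1M 1 was higher, where 2.22% of all genes were called, and none was called in D1M vs ND. In colon none of the 15 was called in these comparisons. Csnk1d, a casein kinase that phosphorylates PER proteins, rose to 369 to 436 CPM in D3M ileum, and was at 249 to 312 CPM in ND ileum, without overlap (log2 fold change 0.51 ± 0.09, edgeR adjusted p = 0.00287). It also rose in D3M vs D1M in ileum (0.33 ± 0.08, adjusted p = 0.0383), and its D3M vs ND change was larger in ileum than in colon by 0.57 ± 0.14 (adjusted p = 0.0385). Without ND rats 1 and 4 the D3M vs ND call of Csnk1d did not hold (0.51, adjusted p = 0.0519). Without D3M rat 5 as well, it was at 0.49 in D3M vs ND (adjusted p = 0.0738), 0.32 in D3M vs D1M (adjusted p = 0.0894) and 0.47 for the tissue difference (adjusted p = 0.341). With the rat as block, the tissue difference of Csnk1d was 0.57 (adjusted p = 0.228). When each of the 18 rats was left out in turn, the D3M vs ND call of Csnk1d held 18 times, its D3M vs D1M call 10 times (adjusted p = 0.0107 to 0.110; lost without D3M rats 2, 3, 4 or 6 or D1M rats 1, 4, 5 or 6) and its tissue difference 6 times (0.0190 to 0.189). Of 9 epithelial markers, 8 passed the filter in ileum. Their summed CPM was 25102 to 32538 in D3M and 17546 to 23978 in ND rats, with 4 of the 8 higher and 1 lower. Their part in the change of Csnk1d was not tested.

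Within groups, the clock genes other than Clock differed widely between rats. After removal of group means, the SD of log2 CPM in ileum was 0.95 for Arntl, 0.78 for Per2 and 0.68 for Per3, against a median of 0.27 over all genes tested. In colon it was 0.83 for Cry1, 0.81 for Arntl and 0.65 for Per2, against a median of 0.29. Clock had an SD of 0.23 in ileum and 0.28 in colon. The plot of deviations shows that a rat with little Arntl had much Per2 in the same tissue. In ileum D1M rat 4 had the group's lowest Arntl (4.59 CPM) and highest Per2 (163 CPM), and D1M rats 1 and 5 had the highest Arntl (36.1 and 39.0 CPM) and the lowest Per2 (34.0 and 39.8 CPM). In D3M ileum rat 4 had 4.12 CPM of Arntl and 218 CPM of Per2, while rat 5 had 18.9 CPM of Arntl and 65.4 CPM of Per2.

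**Figure D3:**
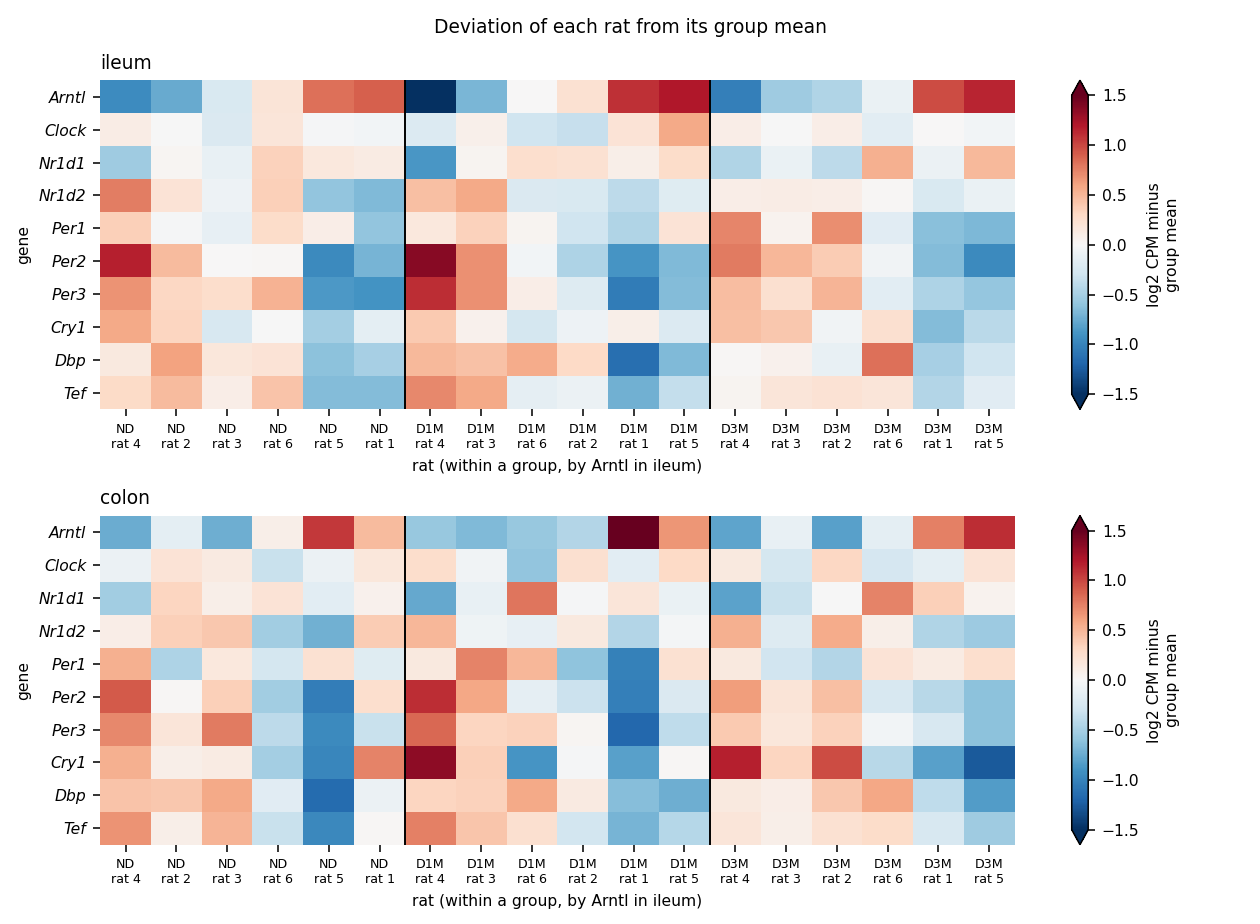
Deviation of each rat from its group mean in log2 CPM, in ileum above and colon below, for the 10 clock genes (rows) and 18 rats (columns, ordered within each group by Arntl in ileum, with the same order in both panels). Red is above and blue below the group mean. Arntl runs against Per2, Per3 and Tef in most rats, and the pattern of a rat in ileum returns in its colon for those genes.

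The question whether a rat's clock genes stand at the same point in its 2 tissues was put to the 18 pairs of libraries. For each gene, log2 CPM minus the group mean was correlated between ileum and colon over 18 rats, with 100000 permutations of rats within groups. This is 1 of 3 relations computed for each gene, and p-values were adjusted over all genes tested. Per2 had r = 0.87 (Spearman rho = 0.83, permutation p = 5e-05, adjusted p = 0.153), and Per3 r = 0.85 (rho = 0.75, permutation p = 9e-05, adjusted p = 0.153). Arntl had r = 0.83 (rho = 0.78, permutation p = 0.00020, adjusted p = 0.165), and Dbp r = 0.81 (rho = 0.78, permutation p = 0.00016, adjusted p = 0.153). Nr1d1 had r = 0.73 (rho = 0.55, permutation p = 0.00369, adjusted p = 0.381), Tef r = 0.72 (rho = 0.70, permutation p = 0.00482, adjusted p = 0.411) and Cry1 r = 0.64 (rho = 0.63, permutation p = 0.0102, adjusted p = 0.50). For Nr1d2, Per1 and Clock r was 0.26, 0.23 and 0.15, with rho of 0.26, 0.22 and −0.01.

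None of the 10 passed the adjusted threshold in this test, and neither did any other gene (0% of 12408). Before adjustment 7 of the 10 had p under 0.05, against 6.19% of all genes. The median r was 0.72 over the 10 genes and 0.04 over all genes, whose 99th percentile was 0.69. By r, Per2 ranked 9, Per3 14, Arntl 21 and Dbp 31 among the 12408 genes. With group means left in and rats permuted over all groups, Per2, Arntl and Dbp (adjusted p = 0.0207 each) and Per3 (adjusted p = 0.0282) passed the threshold, as did 0.290% of all genes.

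For each gene the 2 rats farthest from its median in ileum were left out, a pair chosen gene by gene. Then r was 0.88 for Arntl, 0.82 for Per3, 0.78 for Per2, 0.75 for Dbp and 0.60 for Cry1. It was 0.55 for Nr1d1 without ND rat 4 and D1M rat 4 (permutation p = 0.105). It was also 0.55 for Tef without ND rat 5 and D1M rat 1 (permutation p = 0.0571). Each of these 2 relations thus rests in part on its own 2 rats. The second sacrifice day held 2 rats a group, which leave 3 within-group differences, too few for an r. On the first day (12 rats) r was 0.94 for Per3, 0.88 for Per2 and Dbp, 0.83 for Tef, 0.80 for Arntl, 0.77 for Nr1d1 and 0.55 for Cry1. With flow cell removed as well as group, r was 0.70 to 0.87 for Per2, Arntl, Tef, Per3 and Dbp but 0.41 for Cry1 and 0.31 for Nr1d1. The 2 libraries of a rat often ran on different flow cells, so no value within a flow cell could be had. Without ND rats 1 and 4, whose libraries held markers of the other tissue, r was 0.67 to 0.92 for the 7 genes, and without D3M rat 5 as well it was 0.62 to 0.91.

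**Figure D4:**
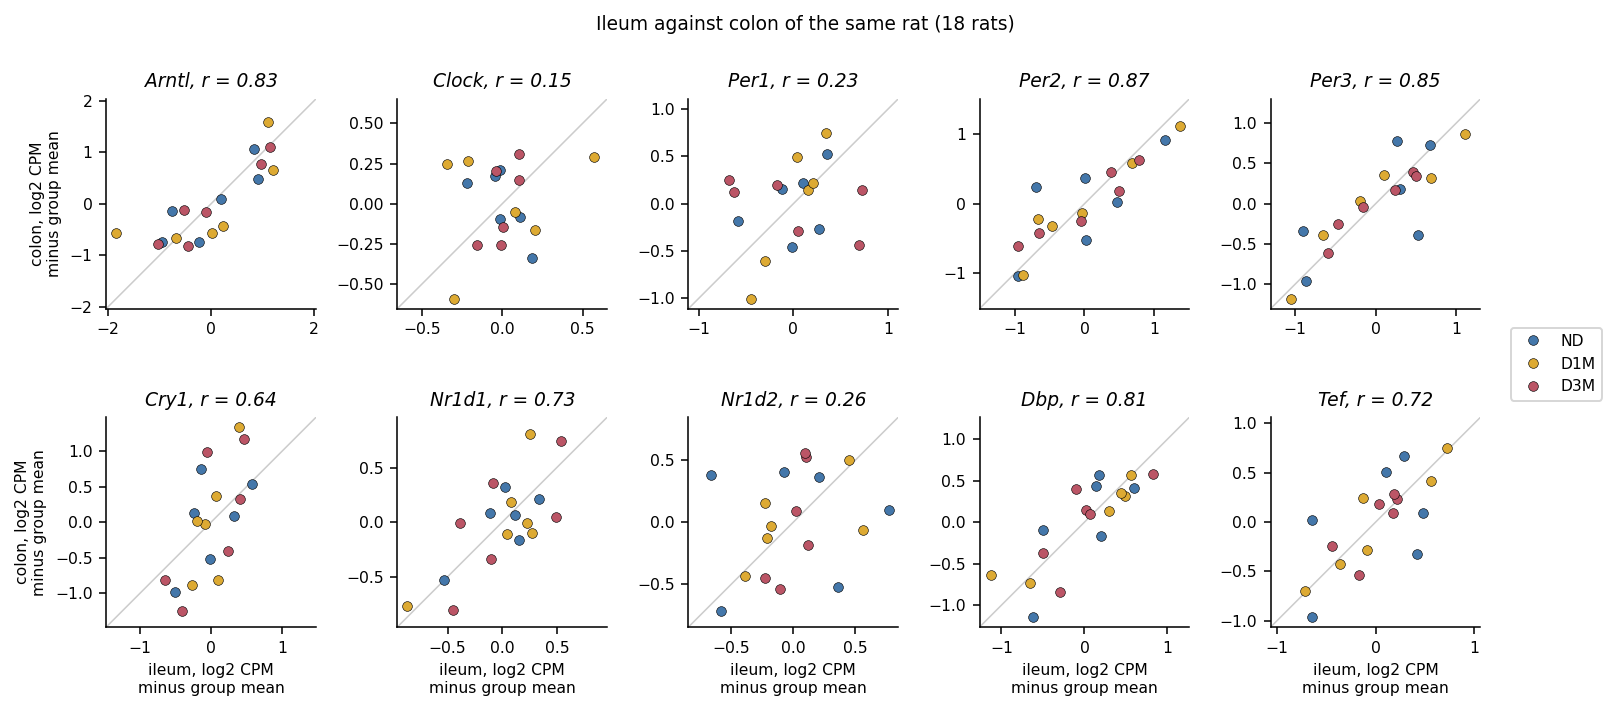
Colon against ileum of the same rat for each clock gene, both as log2 CPM minus the group mean, with 1 point per rat (ND blue, D1M yellow, D3M red), the line of equal deviation in grey and r over 18 rats above each panel. Per2, Per3, Arntl and Dbp lie along the line (r of 0.81 to 0.87), and Clock, Per1 and Nr1d2 scatter (r of 0.15 to 0.26).

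The arms of the loop were then set against each other, with Arntl standing for the activator arm. The other 9 genes were its partner Clock and the inhibitors, repressors and outputs of the loop. Counts and medians over the 9 genes therefore include Clock. Within each tissue the log2 CPM of a gene was correlated with that of Arntl over 18 rats, group means removed, and both values of a point come from the same library. In ileum Per2 had r = −0.97 with Arntl (rho = −0.94, permutation p = 1e-05, the smallest the permutations can give, adjusted p = 0.00868). Per3 followed with r = −0.92 (rho = −0.85, permutation p = 1e-05, adjusted p = 0.00868). Tef had r = −0.85 (rho = −0.80, permutation p = 5e-05, adjusted p = 0.0225) and Nr1d2 r = −0.76 (rho = −0.77, permutation p = 0.00018, adjusted p = 0.0469). These 4 of the 9 genes were called, all with negative r, where 0.392% of all genes were called and 0.322% were called with negative r. Cry1 (r = −0.76, rho = −0.74, adjusted p = 0.0571), Dbp (r = −0.71, rho = −0.62, adjusted p = 0.250) and Per1 (r = −0.63, rho = −0.62, adjusted p = 0.329) also had negative r without passing. With flow cell removed as well as group means, Cry1 was called too (r = −0.79, adjusted p = 0.0204), where 0.722% of all genes were called. With sacrifice day removed, Cry1 (r = −0.70, adjusted p = 0.0406) and Dbp (r = −0.80, adjusted p = 0.0465) were called beside the other 4, where 0.583% of all genes were called.

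Nr1d1 stood apart from its paralog Nr1d2 in ileum, with r = 0.71 with Arntl (rho = 0.70, permutation p = 0.00329, adjusted p = 0.243). D1M rat 4 lay farthest below its group mean in both genes (log2 CPM deviations of −1.85 for Arntl and −0.87 for Nr1d1). ND rat 4, whose ileum library held Car1, was also low in both (−0.95 and −0.53). The r of Nr1d1 without these rats is not given here. Within D3M, which holds neither of them, it was 0.60 on 6 rats. Clock, which pairs with Arntl as a protein, had r = 0.29 (rho = 0.10, adjusted p = 0.888). Before adjustment 8 of the 9 genes had p under 0.05 in ileum, against 7.03% of all genes. The median r was −0.76 over the 9 genes and −0.03 over all genes.

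In colon Per3 (r = −0.93, rho = −0.89) and Tef (r = −0.85, rho = −0.81) had the smallest p that the permutations can give, 1e-05, which came to an adjusted p of 0.0645 each. Dbp had r = −0.88 (rho = −0.79, permutation p = 4e-05, adjusted p = 0.129), Per2 r = −0.80 (rho = −0.81, permutation p = 0.00026, adjusted p = 0.183), Nr1d2 r = −0.72 (rho = −0.74, permutation p = 0.00159, adjusted p = 0.303) and Cry1 r = −0.66 (rho = −0.68, permutation p = 0.00670, adjusted p = 0.384). Per1 had r = −0.30, Nr1d1 r = 0.24 and Clock r = −0.07, with adjusted p of 0.780 to 0.958. None of the 9 was called, nor was any other gene (0% of 12905) in this test. Before adjustment 6 of the 9 had p under 0.05, against 9.41% of all genes. The median r was −0.72 over the 9 genes and −0.01 over all genes.

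edgeR was run with the log2 CPM of Arntl as a term beside the group means and without flow cell. This fit was chosen after the permutation results had been seen, and called 3 of the 9 genes in each tissue. It called 0.445% of all genes in ileum and 0.0310% in colon. In ileum log2 Per2 fell by 0.80 ± 0.05 for each unit of log2 Arntl (edgeR adjusted p = 1.72e-07), Per3 by 0.64 ± 0.07 (adjusted p = 0.000226) and Tef by 0.41 ± 0.07 (adjusted p = 0.00453). In colon Per3 fell by 0.71 ± 0.08 (adjusted p = 0.000705), Dbp by 0.61 ± 0.09 (adjusted p = 0.00844) and Tef by 0.54 ± 0.09 (adjusted p = 0.0230). Nr1d2 in ileum missed the threshold in this fit (adjusted p = 0.0525).

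**Figure D5:**
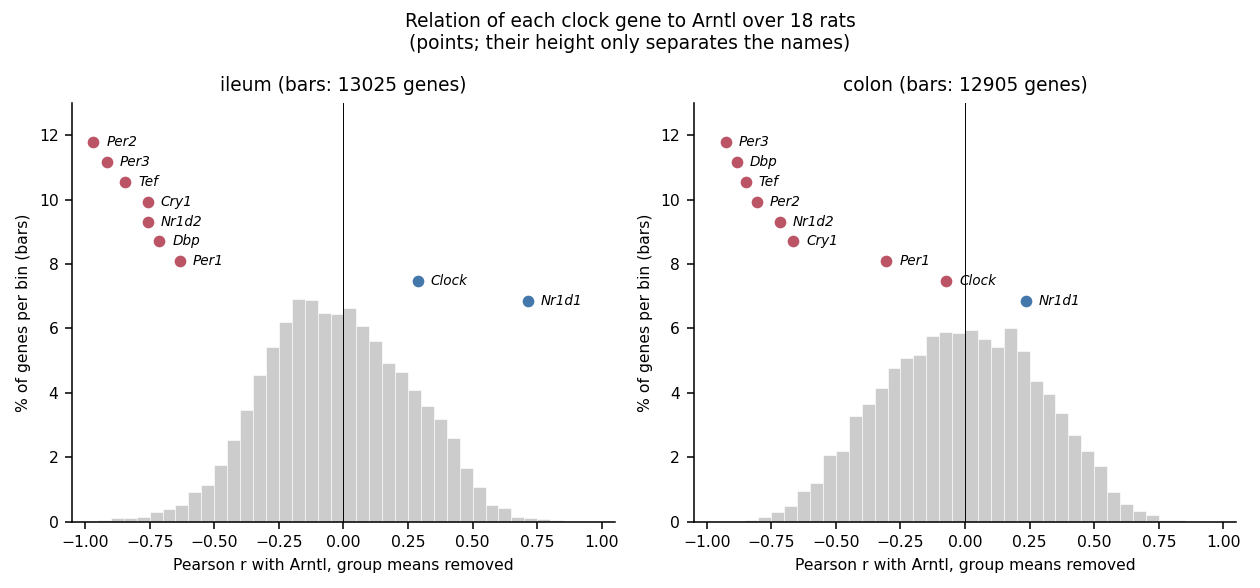
Pearson r with Arntl over 18 rats, group means removed, in ileum (left) and colon (right). Grey bars give the share of all genes tested in each bin of r, and points give the other 9 clock genes, red for negative and blue for positive r, at a height that only separates the names. Per2 in ileum is at −0.97 and Per3 in colon at −0.93, while Nr1d1 lies at 0.71 in ileum and 0.24 in colon.

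The relation to Arntl was looked at within each group and batch. With 6 rats a group, Per2 in ileum had r of −0.96 in ND, −0.98 in D1M and −0.99 in D3M, and Per3 in colon had −0.97, −0.93 and −0.97. In ileum Per2, Per3, Tef and Nr1d2 had r of −0.83 to −0.97 on the first sacrifice day (12 rats). Within flow cell 1 they had r of −0.88 to −0.998, on 8 ileum libraries of which the 1 ND library adds nothing once group means are removed. In colon Per3, Tef, Dbp and Per2 had r of −0.81 to −0.96 on the first day and −0.75 to −0.98 within flow cell 2 (8 libraries). The second day and flow cell 3 held 2 libraries a group in each tissue, too few for an r, and the remaining flow cell of each tissue held 4 libraries. For Nr1d1 r on the first day was 0.76 in ileum and 0.58 in colon, and over all 18 rats with sacrifice day removed it was 0.63 and 0.10.

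Per2 and Per3 in ileum remained called without any single rat and without the 2 rats farthest from the median of Arntl (D1M rats 4 and 5), where r was −0.97 and −0.89. When each of the 18 rats was left out in turn, Tef remained called 10 times and Nr1d2 only 2 times. Neither was called without those farthest 2 rats (r = −0.80 and −0.75, adjusted p = 0.117 and 0.114). In colon, without D1M rat 1 and D3M rat 5, r was −0.88 for Per3, −0.87 for Dbp, −0.80 for Tef and −0.72 for Per2. Summed CPM of B cell markers ranged from 27.9 to 1048 in ileum, over 11 markers. In colon it ranged from 13.7 to 959, over the 7 of the 11 that passed the filter there. With the B cell score removed as well as group means, r in ileum was −0.97 for Per2 and −0.90 for Per3, which remained called, and −0.83 for Tef and −0.74 for Nr1d2, which did not (adjusted p = 0.0707 and 0.176). Without ND rats 1 and 4, Per2 (r = −0.98) and Per3 (r = −0.91) were called in ileum and Tef (r = −0.84) and Nr1d2 (r = −0.74) were not. Without D3M rat 5 as well, on 15 rats, no gene was called in ileum, with r of −0.97 for Per2 (permutation p = 1e-05, adjusted p = 0.0781), −0.90 for Per3 (adjusted p = 0.130), −0.86 for Tef (adjusted p = 0.205) and −0.76 for Nr1d2 (adjusted p = 0.513).

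Of the listed other clock genes, the permutation test called 2 with positive and 2 with negative r with Arntl in ileum, out of 16, and none of 15 in colon. edgeR with Arntl as a term called Cry2 in ileum as well (adjusted p = 0.0489), and Npas2 in colon (adjusted p = 0.00304). These 4 were singled out after their values had been seen. Nfil3, a D-box repressor, had r of 0.92 in ileum and 0.82 in colon, and Npas2, which can replace CLOCK, had 0.86 and 0.87. Usp2 had −0.87 and −0.38, and Ciart, which encodes an inhibitor of CLOCK and ARNTL, −0.86 and −0.70. In the relation of ileum to colon none of the 15 was called.

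Between tissues, 6 of the 10 clock genes were higher in ileum than in colon in the 36 libraries, after group and flow cell had been taken into account (73.2% of all genes were called, 34.5% as higher in ileum). This fit took the libraries as independent, although ileum and colon came from the same rats. Nr1d1 was higher by 0.77 ± 0.14 on the log2 scale (edgeR adjusted p = 1.03e-05) and in 17 of 18 rats. Arntl was higher by 0.90 ± 0.30 (adjusted p = 0.00710) in 16 rats, Cry1 by 0.64 ± 0.18 (adjusted p = 0.00195) in 15, and Per1 by 0.57 ± 0.13 (adjusted p = 0.000239) in 13. Tef was higher by 0.36 ± 0.14 (adjusted p = 0.0262) in 14 rats and Nr1d2 by 0.31 ± 0.11 (adjusted p = 0.0156) in 13. The ileum minus colon difference was 0.13 ± 0.18 for Dbp, 0.01 ± 0.18 for Per3, −0.08 ± 0.07 for Clock and −0.34 ± 0.22 for Per2, none of them called. The same 6 were called without ND rats 1 and 4 and D3M rat 5 (adjusted p = 0.000135 to 0.0431). With the rat as block 7 of the 10 were called (71.4% of all genes), Per2 being lower in ileum by −0.30 (adjusted p = 0.0173) and in 14 of 18 rats.

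The tissue make-up of the libraries differed beside these differences. Of 10 smooth muscle markers, 9 passed the filter. Their summed CPM was 1153 to 7464 in ileum and 5519 to 18945 in colon, with none of the 9 higher and 7 lower in ileum. That of the 8 epithelial markers tested was 17546 to 32538 in ileum and 12568 to 21139 in colon, with 6 of the 8 higher and 1 lower. Of 7 immediate early genes tested, which respond to handling and sampling, 5 were higher in ileum. No marker list was at 0 in a tissue, and their part in the clock gene differences was not tested.

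Sacrifice on the second against the first day was compared in the same way within each tissue. In D3M ileum the 2 rats of the second day were also the 2 on flow cell 3, so day and flow cell coincide there. None of the 10 clock genes was called in ileum, where 0.00768% of all genes were, or in colon, where 0.00775% were. Before adjustment Nr1d1 alone had p under 0.05 in ileum (12.7% of all genes), and Per2 and Cry1 in colon (9.65%). Nr1d1 in ileum was at 0.47 ± 0.13 (edgeR adjusted p = 0.204), and DESeq2 called it (0.47, adjusted p = 0.0473), the one call among the 10 by DESeq2 in either tissue, where it called 1.87% of all genes in ileum. Per2 in colon was at −0.73 ± 0.29 (adjusted p = 0.382), and Cry1 in colon at −0.76 ± 0.35 (adjusted p = 0.499). Smooth muscle markers in ileum had a median log2 fold change of 1.14 between the days, with p under 0.05 before adjustment for 9 of 9 tested. B cell markers in colon had a median of 4.36, with such a p for 7 of 7. The part of these markers in the clock gene values was not tested.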

How the data were processed

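Polyadenylated RNA of whole ileum and colon was made into stranded libraries, sequenced, aligned with STAR to rn6 and counted per gene in SeqMonk by the authors. The table deposited by the authors gives raw, unscaled counts of 24773 genes. Its 36 columns of standard deviations hold only 0 and were not used, nor was the authors' log2 table.

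Genes were filtered (filterByExpr by group), TMM-normalized and tested in edgeR 4.0.16 (R 4.3.3, limma 3.58.1) by the quasi-likelihood test with flow cell in 3 levels as covariate, Benjamini-Hochberg adjustment over all genes and a threshold of 0.05. The fit with Arntl as a term had no flow cell covariate. Flow cells, as read from the prefixes of library names, were not balanced over groups. D3M ileum had 4 libraries on flow cell 1 and 2 on flow cell 3 only, while ND ileum had 1, 3 and 2 on flow cells 1, 2 and 3. D3M colon ran on flow cells 2 and 3 only. The covariate therefore separates flow cell from D3M only in part. The SE of a log2 fold change was taken as |log2 fold change|/√F. DESeq2 1.42.0 was an alternative. Relations used log2 CPM (prior count 2) and permutation tests (NumPy 2.4.6), with 100000 permutations of rats within groups. Methods were tested on simulated data.

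All 10 members are named, together with listed clock genes past the threshold and the 5 genes most and the 5 least like Arntl in both tissues among those whose log2 CPM averaged 1 or more. The result of 1 listed gene that passed the threshold is counted but not reported here. Members and lists were chosen with earlier results of these data known. Libraries of a group came from separate rats, and ileum and colon of a rat were paired by the rat number in the labels. Alternatives changed normalization, filter, tool, covariates, prior count and the rats included.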

Additional observations from a re-analysis of the deposited data

Results flagged for a closer look

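Of 60 groups of 6 libraries (10 genes, 3 groups, 2 tissues), 3 held a value set apart from the rest by more than Dixon's 95% limit, where chance sets apart about 1 in 20. Nr1d1 in ileum of D1M rat 4 was at 130 CPM, and the other 5 D1M rats were at 245 to 288 CPM. Cry1 in colon of the same rat was at 29.8 CPM, where the others spanned 6.28 to 15.1 CPM. Dbp in ileum of D3M rat 6 was at 585 CPM, where the others spanned 234 to 346 CPM.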

How the results depend on the processing

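In group comparisons edgeR called none of the 10 clock genes, and alternatives changed this in few cases. DESeq2 called 3 in ileum in D3M vs D1M, 1 in D3M vs ND and 1 between sacrifice days in ileum. Without the flow cell term Cry1 was the 1 call in ileum in D3M vs ND (0.77, adjusted p = 0.0117), where flow cells were not balanced between the groups. With only the 2 groups compared Per2 was the 1 call in colon in D3M vs ND (0.85, adjusted p = 0.0350). Leaving out 1 library at a time gave 0 to 2 calls in ileum in D3M vs D1M (2 without D3M rat 1) and 0 to 1 in D3M vs ND (Cry1 without D3M rat 1, adjusted p = 0.0296, and Nr1d1 without ND rat 6, adjusted p = 0.0338). For ileum vs colon it gave 5 to 6, with Nr1d2 lost without ND rat 4 (adjusted p = 0.0562) and Tef without ND rat 2 (adjusted p = 0.0653).

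In the relation to Arntl in ileum the 4 calls became 2 with Spearman's rho, with the B cell score removed, without the 2 farthest rats or without ND rats 1 and 4, 0 with the 12 rats of the first day alone, 0 without ND rats 1 and 4 and D3M rat 5 (chosen after the data had been seen), and 2 to 4 when 1 rat was left out (2 without ND rats 1, 2, 4 or 5, D1M rats 3 or 4, or D3M rat 1). They became 5 with flow cell removed (Cry1 added) and 6 with sacrifice day removed (Cry1 and Dbp added). Nr1d2 lost its call with RLE size factors in place of TMM (adjusted p = 0.0639) and without the filter on low counts (adjusted p = 0.0661). With group means not removed, Nr1d2 in ileum was lost (adjusted p = 0.0565) and Dbp was called (adjusted p = 0.0443). In colon the 0 calls became 3 in edgeR with Arntl as a term and 3 with group means not removed, which also gave 4 in the agreement of ileum and colon. On 12 rats the permutations allow no smaller p than 7e-05 for Per2 in ileum, so that calls over all genes are limited there. Of the 10 calls, 6 between tissues and 4 with Arntl in ileum, no value changed its sign under the alternatives run.

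The number of all genes called moved more. It was 92 to 3007 in ileum in D3M vs ND (1632 as reported) and 101 to 989 in D3M vs D1M (289), and leaving out 1 library gave 675 to 2437 and 6 to 761. In colon D3M vs ND gave 0 to 315 (2). With the rat as replicate block, the paired fit called 0 of all genes for ileum minus colon in D3M vs ND (214 without the block) and none of the clock genes, and among the 10 clock genes it changed only the call of Per2 between tissues (−0.30, adjusted p = 0.0173). The causes of these changes were not tested. Time of day, age in comparisons with ND, and 6 rats a group limit what these values can show.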

Other observations

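Ranked by the weaker of the 2 tissues, the genes outside the clock lists that ran most against Arntl were, with r in ileum and colon, Gclm (−0.87 and −0.83), Txnrd1 (−0.83 and −0.81), Pecr (−0.78 and −0.82), RGD1309534 (−0.93 and −0.72) and Cys1 (−0.71 and −0.77). Gclm encodes a subunit of the enzyme that begins glutathione synthesis, and Txnrd1 encodes a thioredoxin reductase. Those that ran most with Arntl were Ccnjl (0.82 and 0.82), Steap3 (0.74 and 0.76), Spsb3 (0.70 and 0.71), Leo1 (0.70 and 0.84) and Ubqln4 (0.69 and 0.73). Among 6075 genes with the same sign in both tissues, Per3 ranked 1, Tef 2, Per2 5, Nr1d2 9, Dbp 11 and Cry1 15 from the most negative, and Npas2 1 and Nfil3 2 from the most positive. These ranks are a description over 18 rats. In colon none of these genes passed the adjusted threshold of the permutation test, while edgeR with Arntl as a term called Per3, Tef, Dbp and Npas2 there.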
